A study of Rattus norvegicus with 7 samples.

Results

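Chemokines and their receptors were measured by 58 probe sets of 45 genes, out of 31042 non-control probe sets on each array. They were every probe set with a single gene symbol whose symbol begins with Ccl, Cxcl, Cx3cl, Xcl, Ccr, Cxcr, Cx3cr, Xcr or Ackr followed by a digit. Chemokines are small proteins that bind G protein-coupled receptors on leukocytes and other cells and guide their movement; their family names give the spacing of conserved cysteines. Atypical receptors (Ackr) bind the same ligands without G protein signalling and clear or transport them. In the lung, the pair Cxcl12 and Cxcr4 is known for holding and drawing progenitor and immune cells, and Ccl2 for drawing monocytes.

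The samples were total RNA from right lungs of Dahl salt-sensitive rats weighing 250 to 350 g, frozen after the pulmonary vessels had been flushed with saline. The animals of both groups breathed about 9.5% oxygen and received SU-5416, an inhibitor of VEGF receptors, and lungs were taken at 3.5 weeks. The HSU group (3 arrays, titled 1b, 2b and 3b) received nothing further, and the HSU_Sor group (4 arrays, titled 1 to 4) also received sorafenib, an inhibitor of RAF and of several receptor kinases. SU-5416 added to hypoxia gives rats severe pulmonary hypertension and serves as a disease model; normoxic rats and rats in hypoxia alone were not analysed here. The replicate number is followed by a letter b for the 3 HSU arrays alone, so whatever it marks and the treatment cannot be told apart. The labels do not say that each array came from its own rat, and the errors below measure the spread between these 7 samples.

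Array medians lay between 3.59 and 3.68 on the log2 scale, and any pair of arrays correlated at 0.9843 to 0.9916 across the 15521 probe sets above the floor. HSU 1b and 2b stood apart from the other 5 arrays at 6 probe sets of MHC (RT1) genes. The cutoff was over 2 log2 units higher on both, and lower values were not counted. Some gaps were far larger than this cutoff. RT1-Bb was at 12.57 on both arrays and at 3.55 to 3.72 on the other 5, around the floor of 3.64. RT1-Ba was at 7.19 and 7.7 against 3.29 to 3.49. The HSU group was thus split at these genes, with HSU 3b near the HSU_Sor arrays for RT1-Bb and RT1-Ba. What sets HSU 1b and 2b apart was not tested, and results are therefore also given without them. Lung identity markers were high on all arrays: the 6 alveolar type II markers were all above the floor, with a summed level of 17.22 to 17.37 in HSU and 17.17 to 17.31 in HSU_Sor (log2 of the summed linear values).

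The windows around the gene starts are shown for the members whose values the results below turn on and for which a RefSeq window was at hand. RefSeq windows (assembly GRCr8, from 250 bases before to 50 bases after the gene start) were matched for 35 of the 45 genes. In Cxcl12 the capitals mark each CG pair, and in the other windows they mark matches to the motifs named after them. The windows lie at chr4:152060531-152060830 on the plus strand for Cxcl12, chr14:13917871-13918170 on the minus strand for Cxcl13, chr10:68868828-68869127 on the minus strand for Ccl9 and chr14:17479272-17479571 on the minus strand for Cxcl1.
Cxcl12: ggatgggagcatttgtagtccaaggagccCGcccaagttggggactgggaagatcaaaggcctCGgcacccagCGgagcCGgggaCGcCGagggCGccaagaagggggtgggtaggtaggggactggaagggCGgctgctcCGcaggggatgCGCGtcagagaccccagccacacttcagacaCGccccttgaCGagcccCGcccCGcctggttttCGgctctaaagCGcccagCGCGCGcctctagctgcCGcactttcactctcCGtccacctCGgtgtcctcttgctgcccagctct
Cxcl13: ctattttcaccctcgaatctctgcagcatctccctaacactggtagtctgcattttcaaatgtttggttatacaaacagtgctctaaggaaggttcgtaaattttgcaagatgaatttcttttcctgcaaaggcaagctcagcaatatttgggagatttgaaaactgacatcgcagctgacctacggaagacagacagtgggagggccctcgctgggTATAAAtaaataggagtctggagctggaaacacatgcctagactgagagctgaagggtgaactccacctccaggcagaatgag
Ccl9: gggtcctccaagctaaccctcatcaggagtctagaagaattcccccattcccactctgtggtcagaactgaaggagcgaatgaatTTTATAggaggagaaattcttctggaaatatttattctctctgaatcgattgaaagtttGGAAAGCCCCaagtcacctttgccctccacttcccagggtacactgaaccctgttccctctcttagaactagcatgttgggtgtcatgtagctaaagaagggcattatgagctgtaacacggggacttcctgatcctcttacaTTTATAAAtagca
Cxcl1: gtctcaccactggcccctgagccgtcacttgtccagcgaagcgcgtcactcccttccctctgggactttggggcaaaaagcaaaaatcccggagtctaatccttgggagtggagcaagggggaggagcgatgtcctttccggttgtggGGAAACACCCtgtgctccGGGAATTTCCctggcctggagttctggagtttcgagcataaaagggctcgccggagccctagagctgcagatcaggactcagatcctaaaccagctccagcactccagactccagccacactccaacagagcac

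The Cxcl12 window held 23 CG pairs and was 66.7% G and C, against 5 pairs and 45.3% for Cxcl13, 3 and 44.7% for Ccl9, and 11 and 58% for Cxcl1. A total of 6 motifs were searched on both strands. The kappaB-type motif (GGG, 2 bases of any kind, TTTCC) was in 6 of the 35 member windows (Cxcl1, Cxcl2, Cxcl6, Ccl9, Ccl20 and Ccr3) and in 1.53% of all 33469 windows. Cxcl1 held 2 matches and Ccl9 held 1, on the minus strand of its window. The TATA box letters TATAAA were in 10 of 35 and in 14.2% of all, among them Cxcl13 and Ccl9. The Cxcl13 match began at -33 bases from the gene start. Those in Ccl9 began at -165, 37 and 39, and the last 2 overlap on opposite strands, past the gene start. The interferon response element-type motif (TTTC, 2 bases of any kind, TTTC) was in 2 of 35 (Cxcl10 and Ccl19) and in 3.92% of all, and the interferon-gamma site-type motif TTCNNNGAA was in 6 of 35 and in 8.87% of all. The STAT6-type motif (TTC, 4 bases of any kind, GAA) was in 3 of 35 and 7.28% of all, and the hypoxia core ACGTG was in 4 of 35 and 19.3% of all. A match describes these letters in this window and is no evidence that a factor was bound.

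Of the 29 ligand genes 15 were read above the array's floor in these lungs, as were 4 of the 12 signalling receptor genes and all 4 atypical receptor genes. The floor was set at 3.64, the median over all non-control probe sets of their mean on the 7 arrays. By this measure 31 of the 58 probe sets, from 23 of the 45 genes, were above the floor, and 27 were not. The floor was a median, so by its definition 15521 of all 31042 probe sets were above it, a share near that of the members. On single arrays, 30 probe sets were above 3.64 on all 7, 26 on none and 2 on some. The probe set nearest above the floor was Ackr2 1393375_at, with a mean of 3.85, and the nearest below was Ccl7, with 3.42. The other probe set of Ackr2, 1369523_at, was at 1.88 to 1.93, so this gene counts as above the floor by 1393375_at alone.

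By role, 5 of 7 inflammatory CC ligands were above the floor (Ccl2, Ccl3, Ccl5, Ccl6 and Ccl9), and Ccl4 and Ccl7 were not. Of 4 eosinophil and type 2 ligands only Ccl11 was above it, with Ccl17, Ccl22 and Ccl24 at the floor. Of 6 lymphoid and mucosal ligands, Ccl19, Ccl21 and Cxcl13 were above it. All 3 interferon-inducible ligands of Cxcr3 (Cxcl9, Cxcl10 and Cxcl11), and Xcl1, were at the floor. Both membrane-bound ligands (Cx3cl1 and Cxcl16), both tissue-made CXC ligands (Cxcl12 and Cxcl14) and all 4 atypical receptors were above it.

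Among 12 signalling receptors, Ccr1, Cxcr1, Cxcr4 and Cxcr5 were above the floor. Ccr2, Ccr3, Ccr4, Ccr6, Ccr10, Cx3cr1, Cxcr2 and Cxcr3 were not, so the ligands Ccl2, Ccl11 and Cx3cl1 were read above the floor while the probe sets of Ccr2, Ccr3 and Cx3cr1 were at it. A probe set at the floor does not show that a transcript was absent. Nor does a nearly constant level above 3.64 show by itself that a transcript was present. Cx3cl1 (9.13 to 9.32) and Ccl19 (7.76 to 7.88) had such levels. Most runs of member genes that lie next to each other in the genome held genes on both sides of the floor. Over the 8 runs (26 genes, each within 250000 bases of the next) 13 genes were above it, against 23 of all 45 member genes. All but Ccl4 were above it in the run of Ccl5, Ccl9, Ccl6, Ccl3 and Ccl4. In the run of Cxcl11, Cxcl10 and Cxcl9 none was.

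**Figure D1:**
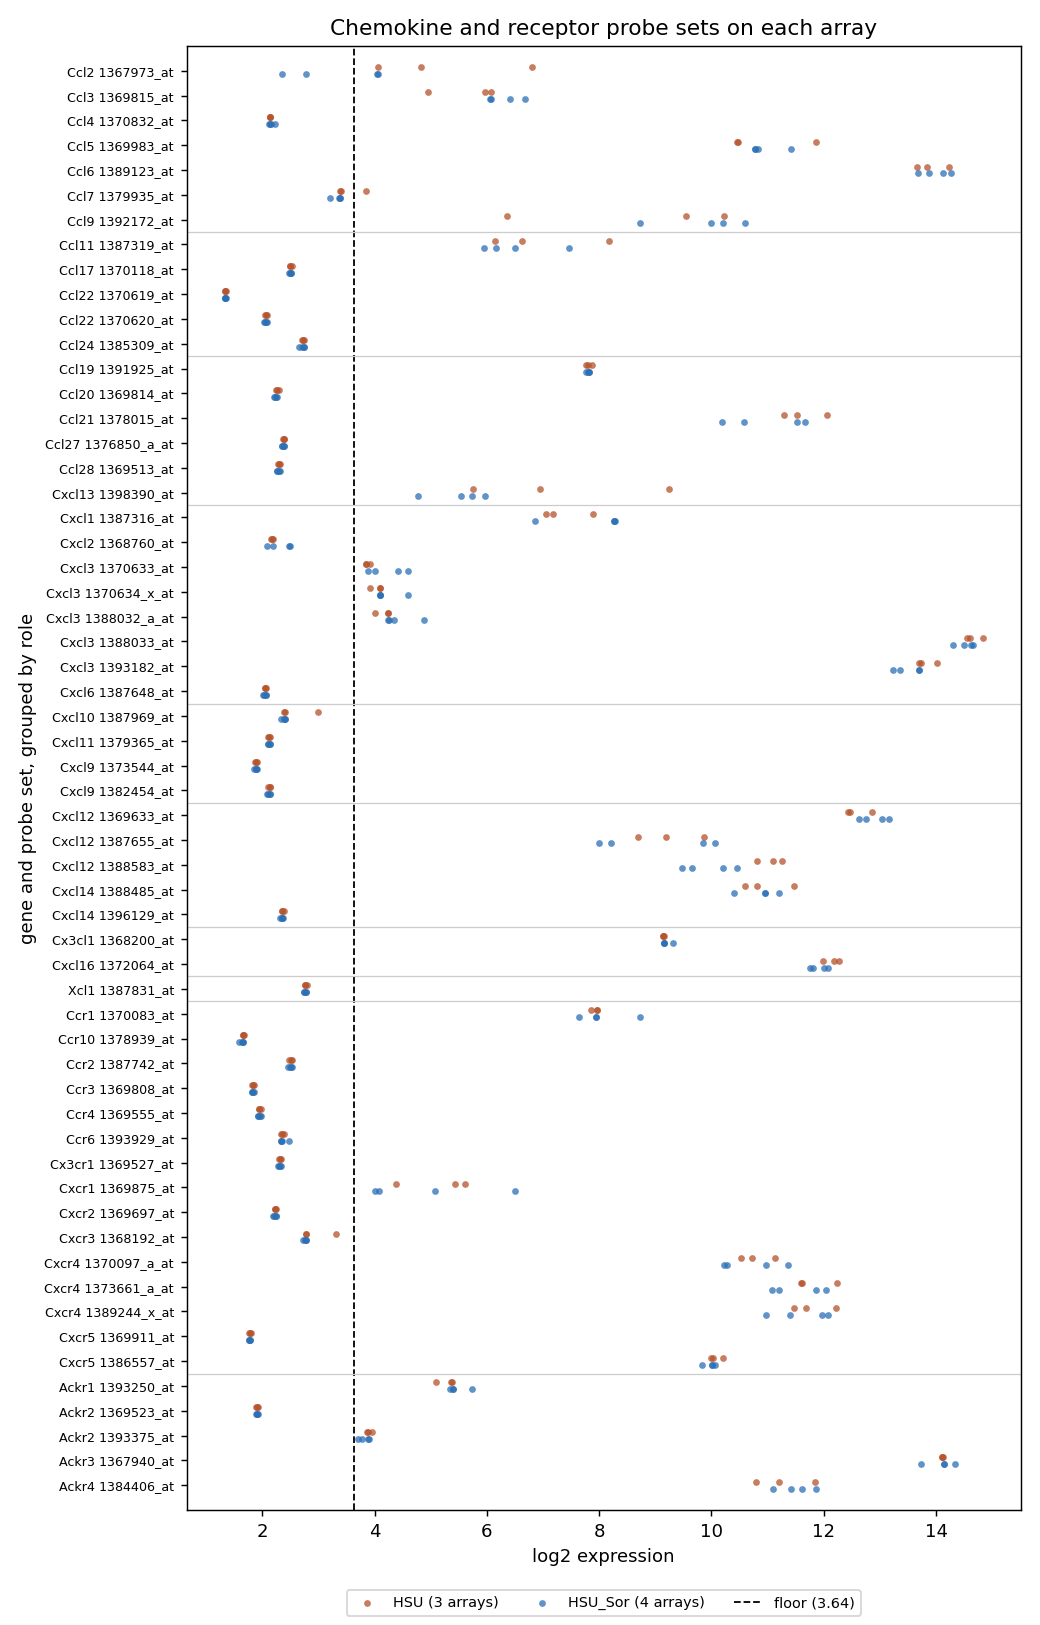
Log2 expression (horizontal axis) of all 58 probe sets, grouped by role from top to bottom, with 1 point per array, HSU in red-brown and HSU_Sor in blue. The dashed line is the floor of 3.64; 31 probe sets have their mean above it, and the 27 below it form tight columns of points.

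The 27 probe sets at the floor carried almost no spread: their range over the 7 arrays had a median of 0.05 log2 units, and 23 of 27 ranged by under 0.25, as did 92.5% of all probe sets below the floor. In 21 of the 27 the highest array was HSU 2b, which was also the highest array for 84.5% of all probe sets below the floor. Cxcl10, the interferon-inducible attractant of T cells, was at 2.99 on HSU 3b and at 2.34 to 2.41 on the other 6 arrays. Ccl7, a monocyte attractant, was at 3.84 on HSU 3b against 3.21 to 3.40, and Cxcr3, the receptor of Cxcl10, at 3.31 against 2.73 to 2.78. The only other member at the floor with a range over 0.25 was Cxcl2, which draws neutrophils, with values of 2.50 and 2.47 on HSU_Sor 2 and 3 and of 2.08 to 2.20 on the other 5. These 4 are named because of their values; Cxcl10, Ccl7 and Cxcr3 stood out on HSU 3b and Cxcl2 on other arrays.

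With sorafenib added, no chemokine or receptor passed the test over all probe sets, and before adjustment the lower values were those of 1 of the 3 probe sets of Cxcl12 and of Ccl2, which entered the test only through its level in HSU. With limma, 0 of the 31 probe sets above the floor had a Benjamini-Hochberg adjusted p below 0.05 (0% of all 15521 tested), their adjusted p running from 0.597 to 0.998. At an unadjusted p below 0.05 there were 2 of 31 (6.45%), both lower in HSU_Sor, against 6% of all probe sets tested in either direction and 3.67% in the lower direction. None of the 31 was higher at that threshold, against 2.33% of all, and with a fold of at least 1.4 as well the 2 of 31 stand against 1.99%. The share in either direction is near the background. Over the 30 members whose means were above the floor in both groups, which leaves out Ccl2, 1 had an unadjusted p below 0.05 (3.33%), against 5.97% of the 15426 such probe sets; with the fold as well it was the same 1, against 1.94%. The groups did not overlap for 1 of 31 (3.23%), against 5.26% of all. That 1 was lower in HSU_Sor (3.25% of all), and 0 were higher (2.01% of all). The median difference was -0.08 over the 31 and -0.01 over all tested, with 18 of the 31 below 0 (54% of all tested were below 0).

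Differences of at least 0.5 log2 units were found for 7 of the 31 (22.6%), against 4.16% of all probe sets tested. The 7 include Ccl2, which entered the test only through its level in HSU. They also include Cxcl13 and Ccl9, whose values ranged over 4.46 and 4.23 log2 units between arrays. This count describes sizes and supports no call. The half-width of the 95% confidence interval, which is not adjusted for the number of probe sets, ran from 0.11 to 2.34, with a median of 0.63. A change of about that size in a typical member could thus not have been told from none even before adjustment. After adjustment the limit was larger: Cxcl12 1388583_at, at -1.10, had a limma adjusted p of 0.597. The count at an unadjusted p below 0.05 was 4 with HSU replicate 1b left out and 1 when HSU replicate 3b or HSU_Sor replicate 3 was. Without HSU 1b and 2b together it was again 2, but of other probe sets, those of Cxcl13 and Ccl5. That fit, here and below, sets the single array HSU 3b, the highest for both, against 4 arrays and takes the spread from HSU_Sor alone. In bulk lung RNA, fewer cells of a type and less RNA per cell cannot be told apart, and this holds for every value below.

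**Figure D2:**
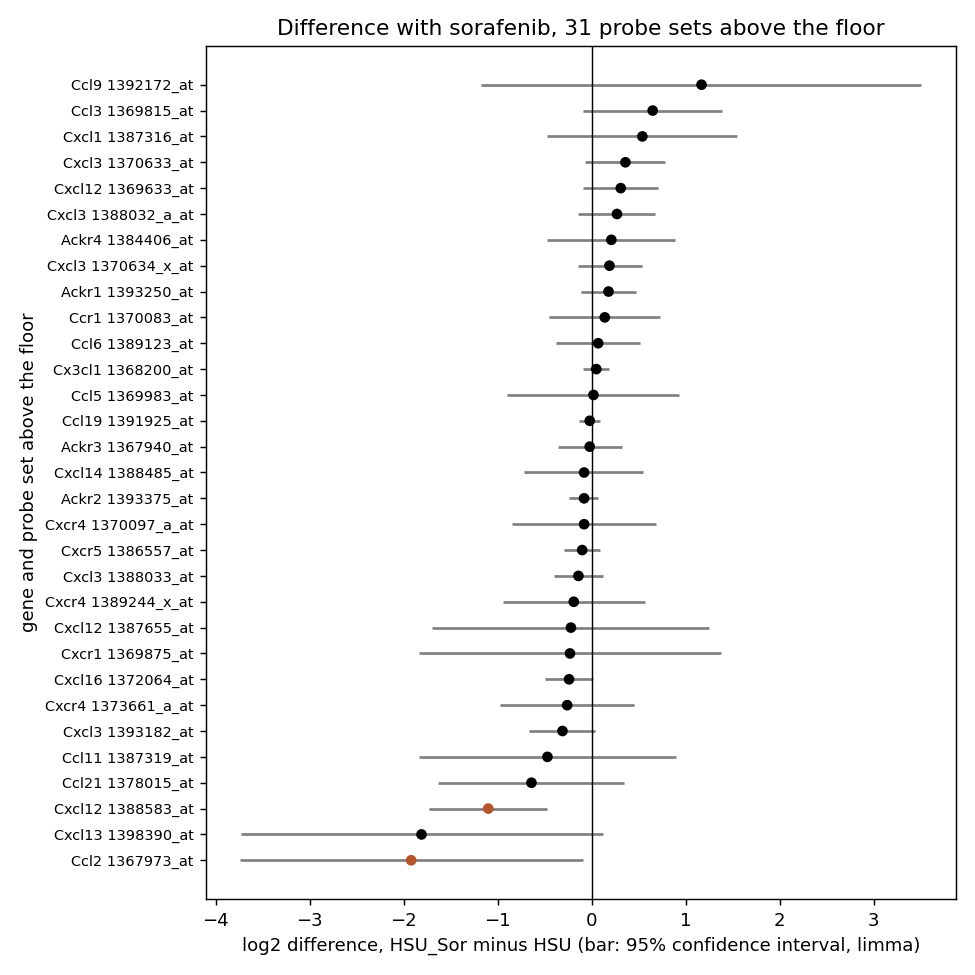
Log2 difference, HSU_Sor minus HSU (horizontal axis), of the 31 probe sets above the floor, ordered from the lowest to the highest, with 95% confidence intervals from limma. Red-brown points have an unadjusted p below 0.05 (Cxcl12 1388583_at and Ccl2); the intervals of Ccl2, Cxcl13 and Ccl9 are the widest of the larger differences.

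Cxcl12, the ligand made by stromal and endothelial cells that binds Cxcr4 and Ackr3, was read by 3 probe sets, and they did not move together. Probe set 1388583_at was at 10.81, 11.25 and 11.10 in HSU (in the order 1b, 2b, 3b, as below) and at 9.48, 9.66, 10.46 and 10.21 in HSU_Sor (in the order 1 to 4). The groups did not overlap, with all 4 HSU_Sor arrays under the lowest HSU array. The group means were 11.05 ± 0.23 (SD, n = 3) and 9.95 ± 0.46 (SD, n = 4). The log2 difference was -1.10 ± 0.26 (SE), a 2.14-fold lower level, with a 95% interval of -1.73 to -0.47. The limma p was 0.00484 before adjustment and 0.597 after it, so this difference did not pass over all probe sets. Leaving out each array in turn gave -1.27 to -0.94 with an unadjusted p of up to 0.0217. Without HSU 1b and 2b together the difference was -1.14 at an unadjusted p of 0.056.

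Probe set 1369633_at of the same gene lay the other way. It was at 12.86, 12.43 and 12.47 in HSU and at 12.63, 13.03, 12.76 and 13.17 in HSU_Sor, with overlapping groups and a log2 difference of 0.31 (95% interval -0.09 to 0.71, adjusted p = 0.874 with limma). The third, 1387655_at, was at 9.87, 9.19 and 8.70 in HSU and at 8.0, 10.06, 8.21 and 9.85 in HSU_Sor, a difference of -0.22 with an interval of -1.70 to 1.25. Its HSU_Sor arrays split into a low pair (1 and 3) and a high pair (2 and 4), a split that 1388583_at did not show. The intervals of 1388583_at (-1.73 to -0.47) and 1369633_at (-0.09 to 0.71) do not meet. The sources used here do not say which transcript forms of Cxcl12 each probe set reads, so no single direction can be stated for the gene.

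Cxcr4, the signalling receptor of Cxcl12, was read by 3 probe sets. On 1373661_a_at it was at 11.61, 11.59 and 12.23 in HSU and at 11.87, 12.04, 11.21 and 11.08 in HSU_Sor. HSU 3b was the highest array there and on 1389244_x_at, HSU_Sor 2 was the highest on 1370097_a_at, and HSU_Sor 3 and 4 were the lowest pair on all 3 probe sets. The differences were -0.26 for 1373661_a_at, -0.19 for 1389244_x_at and -0.08 for 1370097_a_at, with intervals of -0.97 to 0.45, -0.94 to 0.57 and -0.85 to 0.69 and overlapping groups. Ackr3, which takes up Cxcl12, was at 14.10 to 14.12 on the 3 HSU arrays and at 13.73, 14.15, 14.34 and 14.15 in HSU_Sor, a difference of -0.02 (interval -0.36 to 0.32). With quantile normalization the difference of Ackr3 was 0.05.

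**Figure D3:**
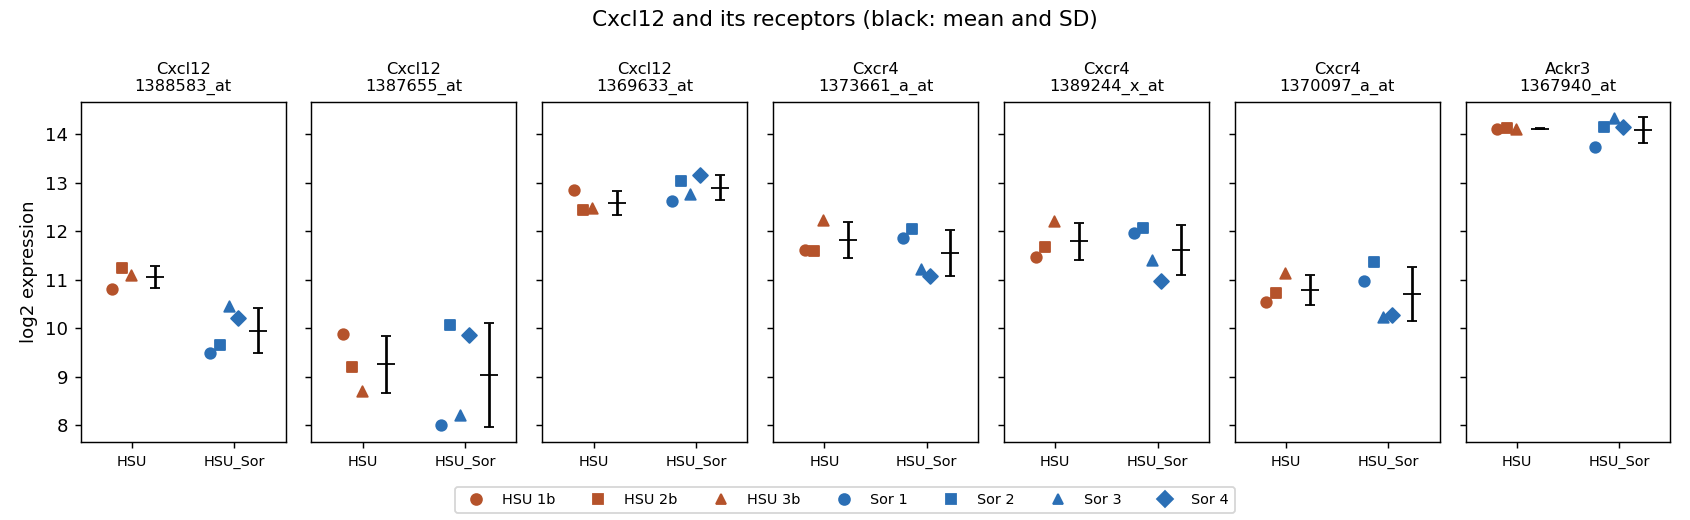
Log2 expression (vertical axis) of the Cxcl12 probe sets, the Cxcr4 probe sets and Ackr3, with 1 symbol per array and the mean ± SD of each group in black. Among these 7 panels only in the first, Cxcl12 1388583_at, do the groups not overlap; levels of different probe sets are not comparable with each other.

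Ccl2, the main attractant of monocytes, was at 4.06, 6.81 and 4.82 in HSU and at 2.78, 4.05, 2.35 and 4.07 in HSU_Sor. HSU 2b was far above the rest, and HSU_Sor 1 and 3 were below the floor. The groups overlapped slightly, with HSU 1b at 4.06 and HSU_Sor 4 at 4.07. The HSU_Sor mean of 3.31 lies below the floor of 3.64, so Ccl2 entered the test only through its HSU mean of 5.23, and no fold is given. The difference of the deposited values was -1.92 ± 0.76 (SE; interval -3.74 to -0.09), with a limma p of 0.0424 before and 0.812 after adjustment. Since the filter favours such a difference, these values describe Ccl2 and support no call. Over the arrays left out in turn, the difference ran from -2.50 (without HSU 1b, unadjusted p of 0.0205) to -1.13 (without HSU 2b, 0.119). Leaving out HSU 3b, HSU_Sor 1 or HSU_Sor 3 gave p-values of 0.0661, 0.0942 and 0.0993. With the replicate block it was -2.17 at 0.00445, and without HSU 1b and 2b together -1.50 at 0.141. Its receptor Ccr2 was at 2.45 to 2.53 on all 7 arrays. The monocyte list (6 genes measured, 5 above the floor, Ccr2 at it) had a summed level of 13.91 to 14.28 in HSU and 13.70 to 13.93 in HSU_Sor. That sum rests mainly on its brightest genes, Fn1 and Ly6c, and the genes did not move together. Differences were -0.36 for Fn1, -0.26 for Ly6c and -1.28 for Vcan, but 0.07 for Cd14 and 0.32 for Fcgr3a. The mast cell list (8 of 9 genes measured, 4 above the floor, with Tpsb2, Tpsab1, Fcer1a and Ms4a2 at it) had 7.91 to 9.25 and 7.01 to 7.64, with its highest level on HSU 2b, as Ccl2 had. Their part in the values of Ccl2 was not tested.

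HSU 2b, the array with the highest Ccl2, had the lowest values of 3 other CC ligands. Ccl9, a ligand of Ccr1 made by rodent macrophages, was at 10.22, 6.36 and 9.55 in HSU and at 9.99, 10.59, 8.72 and 10.20 in HSU_Sor. Its difference of 1.17 ± 0.97 (SE) was -0.01 once HSU 2b was left out and 0.33 with HSU 1b and 2b both left out. Ccl3, another ligand of Ccr1, was at 6.07, 4.95 and 5.96 in HSU and at 6.07, 6.42, 6.06 and 6.68 in HSU_Sor. Its difference of 0.65 (interval -0.09 to 1.39) had an unadjusted p of 0.076 (0.0463 when HSU replicate 1b was left out). The difference was 0.29 once HSU replicate 2b was dropped and 0.35 without HSU 1b and 2b together. Ccl6, the macrophage-made neighbour of Ccl9 in the genome, was at 14.23, 13.66 and 13.84 in HSU and at 13.87, 14.13, 13.68 and 14.26 in HSU_Sor, a difference of 0.07 (interval -0.38 to 0.52).

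Among the macrophage markers above the floor, only Cd68 and Csf1r were also lowest on HSU 2b. Cd68 was at 8.31 on HSU 2b and at 9.79 to 10.44 on the other 6 arrays, while Csf1r was at 11.26 against 11.53 to 11.75. Mrc1, Adgre1, Lyz2, C1qa, C1qb and C1qc each had their lowest value on an HSU_Sor array. Outside that list, other leukocyte genes were also lowest on HSU 2b. In the monocyte list Cd14 (8.82 against 9.28 to 10.08) and Fcgr3a (9.94 against 10.34 to 11.13) were, while Ly6c, Vcan and Fn1 were lowest on HSU_Sor arrays. Among adhesion genes above the floor, Itgal (10.17 against 10.62 to 11.02) and Itgb2 (10.18 against 10.71 to 11.02) were, while Itgb1, Icam1 and Vcam1 were not. The summed level of the macrophage list (10 of 11 genes measured, 8 above the floor, Cd163 and Itgam at it) ran from 15.37 to 15.64 in HSU and from 15.29 to 15.43 in HSU_Sor. That sum rests mainly on Lyz2, at 14.76 to 14.99. Differences were 0.39 for Cd68, 0.17 for Csf1r, 0.01 for Mrc1, -0.06 for Lyz2 and -0.20 for Adgre1. The complement genes of the list, C1qa, C1qb and C1qc, had lower values in HSU_Sor (differences of -1.70, -2.69 and -1.68, unadjusted p below 0.05, adjusted p = 0.524 to 0.756 with limma). The part of these cells in the values of Ccl9, Ccl3 and Ccl6 was not tested. Ccr1, the receptor of all 3 ligands, was at 7.97, 7.86 and 7.96 in HSU and at 7.65, 7.95, 7.95 and 8.73 in HSU_Sor, where HSU_Sor 4 alone was high. Its difference was 0.14 (interval -0.45 to 0.73).

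HSU 3b held the highest values of several attractants of lymphocytes and eosinophils. Cxcl13, which draws B cells through Cxcr5, was at 6.95, 5.76 and 9.24 in HSU and at 5.74, 5.54, 5.97 and 4.78 in HSU_Sor. HSU 3b stood over 2 log2 units above the next array, and the groups overlapped through HSU 2b. The difference was -1.81 ± 0.80 (SE; interval -3.73 to 0.12), with a limma p of 0.0614 before and 0.861 after adjustment. It became -0.85 when HSU replicate 3b was left out and -2.59 when HSU replicate 2b was, the latter at an unadjusted p of 0.0119. Without HSU 1b and 2b together, HSU 3b alone against the 4 HSU_Sor arrays gave -3.74 at a limma adjusted p of 0.196.

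Cxcr5 was read by 2 probe sets that disagree in level. Probe set 1386557_at was at 9.84 to 10.21 on the 7 arrays and 1369911_at at 1.76 to 1.80, at the floor. The B cell markers Cd79b, Ms4a1, Mzb1 and Cr2 were at the floor and Jchain, a plasma cell gene, at 8.65 to 10.43. Neither Cxcr5 probe set followed the high Cxcl13 of HSU 3b.

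Ccl5, made by T and NK cells, was at 10.45, 10.48 and 11.86 in HSU and at 11.42, 10.83, 10.77 and 10.77 in HSU_Sor. HSU 3b was highest and HSU 1b and 2b were the lowest of all 7, so the difference of 0.02 (interval -0.90 to 0.93) came to 0.48 with HSU 3b left out and to -0.91 with HSU 1b and 2b both left out, where HSU 3b alone stands for its group. Ccl11, the eotaxin that binds Ccr3, was at 6.62, 6.15 and 8.17 in HSU and at 5.95, 6.16, 6.50 and 7.46 in HSU_Sor. Its difference of -0.47 (interval -1.84 to 0.90) turned to 0.13 without HSU replicate 3b. The eosinophil markers Epx, Prg2 and Il5ra were at the floor, while Siglec5, the other marker of that list measured, was at 8.54 to 10.09.

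Ccl21, made by lymphatic vessels for Ccr7-bearing cells, was at 11.53, 11.30 and 12.06 in HSU and at 11.67, 11.53, 10.58 and 10.19 in HSU_Sor. HSU_Sor 3 and 4 were the lowest arrays, as they were for Cxcr4, and the other 2 HSU_Sor arrays lay among the HSU values. The same arrays stood apart in the erythroid list (3 of 4 genes measured, 2 above the floor, Slc4a1 at it), with summed levels of 12.12 and 11.59 against 14.25 to 14.89 on the other 5; its part in these values was not tested. The difference was -0.64 (interval -1.63 to 0.35, adjusted p = 0.874 with limma), and it was -1.07 without HSU 1b and 2b together. Without HSU_Sor replicate 4 it was -0.37. Ccl19, which shares a receptor with Ccl21, was at 7.76 to 7.88 on all 7 arrays. Ackr4, the scavenger of Ccl19 and Ccl21, was at 11.85, 10.80 and 11.20 in HSU and at 11.86, 11.41, 11.09 and 11.62 in HSU_Sor, a difference of 0.21 (interval -0.47 to 0.89).

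Of the 16 marker lists, 4 had their highest summed level on HSU 3b (interferon-stimulated, T and NK, monocyte and dendritic) and 4 on HSU 1b. The interferon-stimulated list (12 of 13 genes measured, 11 above the floor, Ifit1 at it) had a summed level of 15.05 on HSU 3b, while HSU 1b and 2b had 13.43 and 13.72 and the HSU_Sor arrays 13.33 to 13.84. The T and NK list (12 of 13 measured, 9 above the floor, with Cd3d, Cd4 and Cd8b at it) was at 12.78 on HSU 3b, while HSU 1b and 2b had 11.04 and 11.55 and the HSU_Sor arrays 11.45 to 12.24. The dendritic list (4 of 6 measured, 2 above the floor, with Flt3 and Batf3 at it) was at 9.17 on HSU 3b, while HSU 1b and 2b had 9.02 and 8.54 and the HSU_Sor arrays 7.49 to 7.90. On HSU_Sor 1, which had the second highest Ccl5 (11.42), the T and NK list was also second, at 12.24. Their part in Cxcl13, Ccl5 and Ccl11 was not tested. Of the 31 probe sets above the floor, HSU_Sor 2 was the highest array for 8 and HSU 3b for 7, against 14.5% and 16.1% of all probe sets tested.

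**Figure D4:**
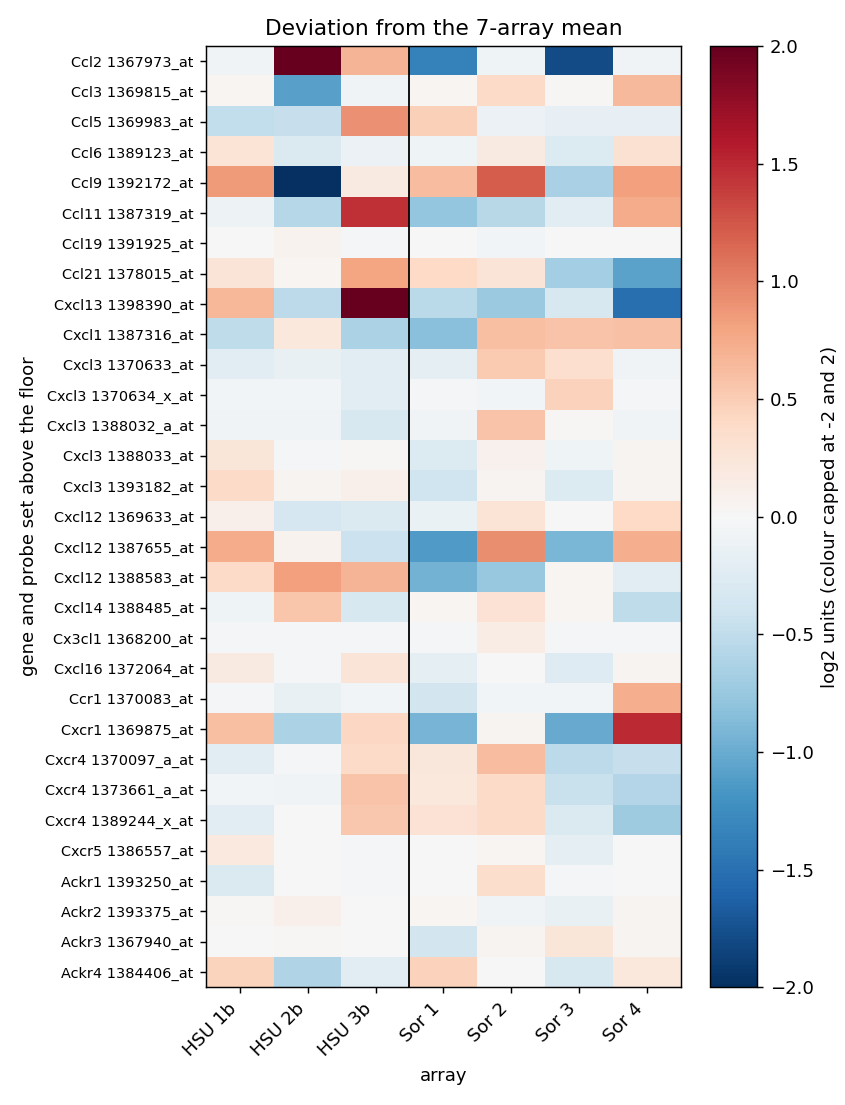
Deviation of each of the 31 probe sets above the floor (rows, by role) from its own 7-array mean on each array (columns), in log2 units, with the colour capped at -2 and 2 and a line between HSU and HSU_Sor. HSU 2b is low for Ccl3 and Ccl9 and high for Ccl2, HSU 3b is high for Ccl5, Ccl11 and Cxcl13, and no column block separates the groups across rows.

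Among the neutrophil attractants, Cxcl1 was at 7.18, 7.89 and 7.06 in HSU and at 6.85, 8.29, 8.26 and 8.27 in HSU_Sor. Of the HSU_Sor arrays, 3 lay above all HSU arrays and HSU_Sor 1 lay below all of them. The difference was 0.54 (interval -0.47 to 1.55). Without HSU_Sor replicate 1 it was 0.89 at an unadjusted p of 0.00938 and an adjusted p of 0.885. Its close relatives Cxcl2 and Cxcl6 were at the floor.

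Cxcl3 was read by 5 probe sets of very different levels, which makes its level uncertain. Probe sets 1388033_at and 1393182_at were at 14.31 to 14.83 and at 13.24 to 14.02, while the other 3 lay between 3.84 and 4.88 on all arrays. The bright probe sets had differences of -0.14 and -0.31, and the dim ones of 0.36, 0.27 and 0.19, with overlapping groups in all 5. Cxcl1, Cxcl2, Cxcl3 and Cxcl6 are near relatives that neighbour each other in the genome. Probe sets whose names end in x_at can bind related transcripts. Of the 5 probe sets only 1370634_x_at, a dim one, has such a name, and binding to related transcripts was not tested.

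Cxcr1, a receptor of neutrophil attractants, was at 5.61, 4.38 and 5.43 in HSU and at 4.08, 5.07, 4.00 and 6.50 in HSU_Sor. It varied as much within HSU_Sor as between any arrays, and its difference of -0.23 (interval -1.84 to 1.38) changed sign when HSU 1b was left out, and likewise for HSU_Sor 1 or 3. Cxcr2, the other receptor of these ligands, was at 2.20 to 2.25. The neutrophil list had its highest summed level, 13.88, on HSU_Sor 3, where Cxcr1 was lowest; 5 of its 9 genes were measured, S100a8 and S100a9 were above the floor, and Camp, Csf3r and Fcnb were at it.

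None of the remaining members above the floor had an unadjusted p below 0.05. Cxcl16, a membrane-bound ligand that is also a scavenger receptor, was at 12.19, 11.98 and 12.27 in HSU and at 11.81, 12.01, 11.75 and 12.07 in HSU_Sor, a difference of -0.24 (interval -0.50 to 0.02). Without an array its unadjusted p ran from 0.0299 to 0.205. Cx3cl1, the membrane-bound ligand of Cx3cr1 known as fractalkine, was at 9.13 to 9.15 on 6 arrays and at 9.32 on HSU_Sor 2. Cxcl14, made by epithelium and fibroblasts, was at 10.59 to 11.47 in HSU and 10.41 to 11.20 in HSU_Sor by 1 probe set and at the floor by the other. Ackr1, the Duffy receptor of venules and red cells, was at 5.10 to 5.73 over the 7 arrays, and the brighter probe set of Ackr2, a scavenger of CC ligands, at 3.70 to 3.96.

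Some chemokines varied widely from array to array. The range over the 7 arrays was above 2 log2 units for 6 of the 31 probe sets (19.4%), against 2.84% of all tested, and above 4 for 3 of them (9.68%), against 0.309%. These were Ccl2 (4.46), Cxcl13 (4.46) and Ccl9 (4.23), followed by Cxcr1 (2.50), Ccl11 (2.22) and Cxcl12 1387655_at (2.07). Among probe sets with a mean level between 4 and 10, which holds all 6, the share was 6 of 15 members (40%) and 4.01% of all 9347. Each of the 3 widest had its extreme on an HSU array: HSU 2b for Ccl2 and Ccl9, and HSU 3b for Cxcl13. At the other end, 2 of the 31, Ccl19 and Cx3cl1, ranged by under 0.25 (23.3% of all tested did).

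**Figure D5:**
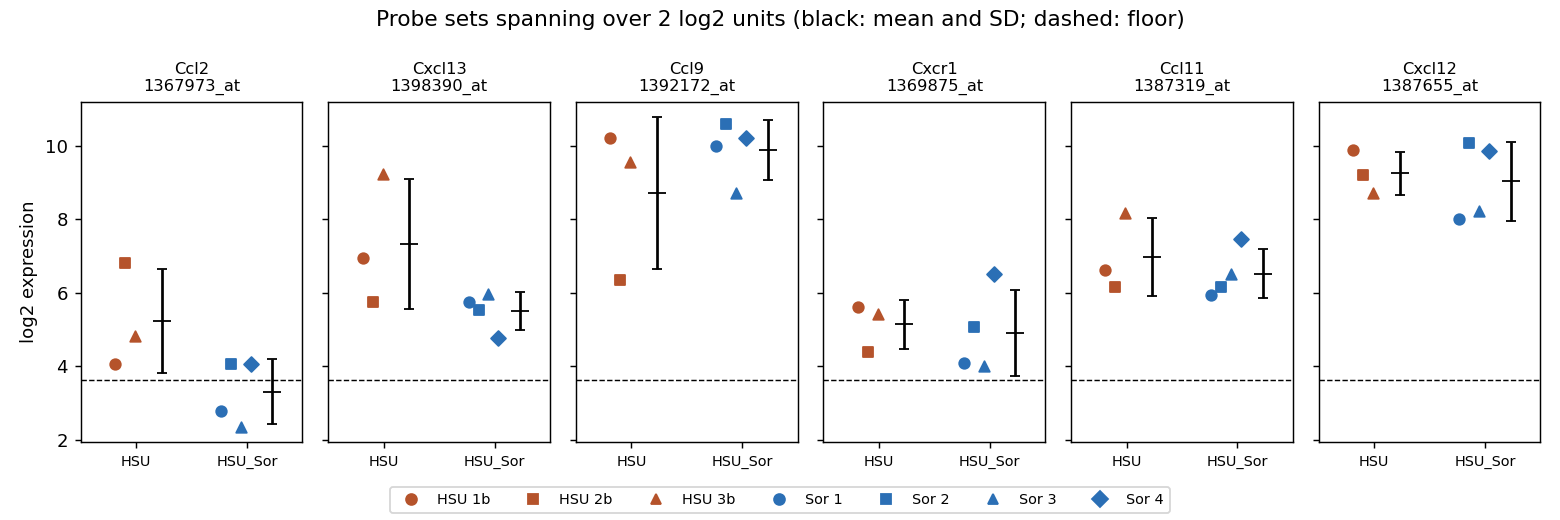
Log2 expression (vertical axis) of the 6 probe sets whose range over the 7 arrays was above 2, with 1 symbol per array, the mean ± SD of each group in black and the floor of 3.64 dashed. Single HSU arrays lie far from the rest for Ccl2 (2b), Cxcl13 (3b) and Ccl9 (2b).

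The other genes of the chemokine pathway (G proteins, arrestins, kinases, inducers, proteases and adhesion molecules) were taken from a fixed list of 76 genes, of which 64 were measured and 48 were above the floor. With limma 0 of the 48 passed after adjustment. At an unadjusted p below 0.05, 1 was lower, 1 was higher and 46 did not pass (4.17% called, against 6% of all probe sets tested), with a median difference of 0. The lower gene was the integrin beta chain Itgb1, at -0.14 ± 0.05 (SE), and the higher was Nfkb2, an NF-kappaB subunit, at 0.24 ± 0.10 (SE). Of the 13 inducers measured 8 were above the floor, among them Il1a at 6.66 to 10.37 and Il1b at 6.96 to 9.04. Tnf, Il6, Ifng, Relb and Csf2 were at the floor.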

How the data were processed

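Lung RNA was measured on 3 HSU and 4 HSU_Sor arrays, grouped by sample title. The values used are those the authors deposited, on a log2 scale and normalized. The submitters' processing notes name both RMA and GCRMA; the sources used here do not give which produced the table, or their versions. Values below the floor were nearly constant, so differences of dim probe sets are compressed. The 57 control probe sets were left out. Gene symbols came from the platform annotation; all 45 member genes were found in RefSeq (GRCr8). HSU_Sor minus HSU was fitted with limma (version 3.58.1, R version 4.3.3, lmFit and eBayes, two-sided, no covariate, Benjamini-Hochberg) on the 15521 of 31042 probe sets with a mean above the median of all (3.64), and for members below it on all 31042. The series description names SAM with a minimum fold of 1.4; its permutations were not run. Named in full were members above the floor with groups that did not overlap, an unadjusted p below 0.05, a difference of at least 0.5, a range above 2, or a partner of such a member, and the other members were given by range. A marker gene stood for its brightest probe set. The members, lists and thresholds were chosen with earlier results of these data known. The fit was tested on simulated data. Alternatives were other filters, normalizations, variance models, array weights, 1 probe set per gene, a replicate block and leaving out arrays; leaving out HSU 1b and 2b together was added after seeing the data. The number of arrays limits the precision.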

Additional observations from a re-analysis of the deposited data

Results flagged for a closer look

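In 6 of the 31 probe sets above the floor, 1 of the 4 HSU_Sor arrays lay further from the other 3 than Dixon's 95% limit for 4 values, a gap of 0.829 of the range. These are 19.4% of the 31. The same screen picks out 15.1% of all 15521 probe sets tested, and chance is meant to give about 1 in 20 such groups. The HSU group has too few arrays for this screen. Cxcl1 was at 6.85 on HSU_Sor 1 against 8.26 to 8.29 on the others, and Ccl5 was at 11.42 on HSU_Sor 1 against 10.77 to 10.83. On HSU_Sor 2, Cx3cl1 was at 9.32 against 9.15 on the others, Ackr1 at 5.73 against 5.34 to 5.39, and Cxcl3 1388032_a_at at 4.88 against 4.24 to 4.34. Cxcl3 1370634_x_at was at 4.60 on HSU_Sor 3 against 4.09 to 4.10. These 6 fell on 3 different arrays.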

How the results depend on the processing

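No member passed an adjusted p of 0.05 in any alternative run, the lowest being 0.196. Of the 31 probe sets above the floor, 18 kept their direction in every alternative, and 13 had a sign change in at least 1; the cause was not tested. Over all probe sets, 6 passed the adjusted threshold with a floor at the 75th percentile, where fewer are tested, 0 to 6 without 1 array (6 without HSU 3b) and 10 without HSU 1b and 2b together. At an unadjusted p below 0.05 there were 562 of 7761 at the 75th percentile. With a fold of at least 1.4 as well there were 309 in the fit of the report, 161 at the 75th percentile, 199 with 1 probe set per gene and 521 without HSU 1b and 2b. Members at an unadjusted p below 0.05 numbered 1 with no filter, at the 75th percentile or with 1 probe set per gene, and 1 to 4 without 1 array (1 without HSU 3b or HSU_Sor 3, 4 without HSU 1b). Members above the floor numbered 18 with the floor at the 75th percentile.

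Signs changed for Ackr3 with quantile normalization (0.05), and with array weights for Cxcr4 1370097_a_at (0.04) and Cxcl14 (0, rounded). With the replicate block they changed for Ccr1 (-0.08), Cxcr4 1370097_a_at (0.06) and 1389244_x_at (0.02), Cxcl14 (0.07) and Ccl6 (-0.02). Without HSU 1b and 2b together they changed for Ccl5 (-0.91), Cxcl12 1387655_at (0.33), Cxcl14 (0.28) and Ccl19 (0.03). Without 1 array the difference ran from -0.10 to 0.10 for Ackr3, -0.03 to 0.49 for Ackr4, -0.88 to 0.13 for Ccl11, -0.04 to 0.01 for Ccl19, -0.22 to 0.48 for Ccl5, -0.05 to 0.23 for Ccl6 and -0.01 to 1.92 for Ccl9. It ran from -0.08 to 0.28 for Ccr1, -0.57 to 0.12 for Cxcl12 1387655_at, -0.27 to 0.17 for Cxcl14, -0.76 to 0.08 for Cxcr1, -0.30 to 0.09 for Cxcr4 1370097_a_at and -0.34 to 0.03 for Cxcr4 1389244_x_at. The paired fit rests on shared title numbers alone: same-numbered arrays had deviations correlated at -0.06, 0.18 and 0.14, and with the replicate block 2 members had an unadjusted p below 0.05 and 1030 probe sets in all. The signal over background limits the 27 members at the floor, for which a difference cannot be read.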
